A study of Sorghum bicolor with 15 samples.

Results

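In roots of the sorghum variety Shanqui Red (SQR), 287 genes differed between 28 and 35 d but moved little in the variety SRN39. The 150 with the largest SQR difference are described here. The choice used log2(CPM + 1), where CPM is a gene's counts scaled to a fixed library total. This scale flattens changes of genes near 0, so some small SRN39 changes may be larger as fold changes. A gene qualified when its SQR libraries at 28 and at 35 d did not overlap, when their means differed by at least 0.8, and when the SRN39 means of the 2 ages lay within 0.25 of each other. SQR libraries of the 2 ages failed to overlap for 14.0% of the 18473 genes with a measurable level, in either direction. Of the 34129 genes of the deposited table, 28088 had at least 1 count, 193 qualified as rises and 94 as falls, and the 150 members comprise 98 rises and 52 falls. Members were chosen by these measured differences between ages, so the age differences are given as a description with no test, and "rose" and "fell" mean only that a gene met the rule.

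The libraries came from whole root systems of 28- and 35-d-old plants of both varieties, grown in sterile soil plugs and then sand under low phosphate, so every group shared that phosphate supply. SQR is the Striga-susceptible variety and SRN39 the Striga-resistant one, and SRN39 carries the lgs1-1 deletion, which removes the sulfotransferase gene LGS1 that shapes which strigolactones the root releases. SQR had 4 libraries at 28 d and 3 at 35 d, and SRN39 had 4 at each age. The study calls its replicates biological, but the labels do not say how many plants made a library, so p-values measure the spread between these libraries. If the days of the watering schedule count from the transfer to sand, plants of the later harvest were further from their last listed watering. Whether they were also further from their last feed depends on whether the first harvest preceded the feed of that day. Age and supply cannot be told apart.

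Between these ages a sorghum root system changes in make-up as crown roots are added to the seminal roots and existing roots mature. Whole-root RNA mixes dividing tips, transport tissue and older cortex. In such bulk RNA, fewer cells of a type cannot be told apart from less RNA per cell.

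Total counts per library ran from 6369710 to 17304929. LGS1 (Sobic.005G213600) had 233 to 1012 counts in the SQR libraries and 5 to 24 in those of SRN39, on the side its genotype labels give. Replicates of SQR at 35 d were the least alike: on average their profiles over the 18473 genes above 1 CPM in 3 or more libraries correlated at 0.935 to 0.955, against 0.975 to 0.984 in the other groups. Libraries were scaled by their totals, and on that scale the median of those 18473 genes itself was 0.204 higher at 35 d in SQR and 0.244 higher in SRN39 (log2). With TMM scaling, which centres the bulk of the genes, these medians were 0.032 and 0.03, and 109 genes qualified as rises and 144 as falls. Rises were thus 67.2% of qualifying genes with library totals and 43.1% with TMM. All 98 rises and 52 falls kept their direction and a difference of at least 0.8 in SQR under TMM, with medians of 1.149 and -1.527. The whole rule, with its SRN39 limit, was still met by 67 of these rises and 36 of these falls.

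**Figure D1:**
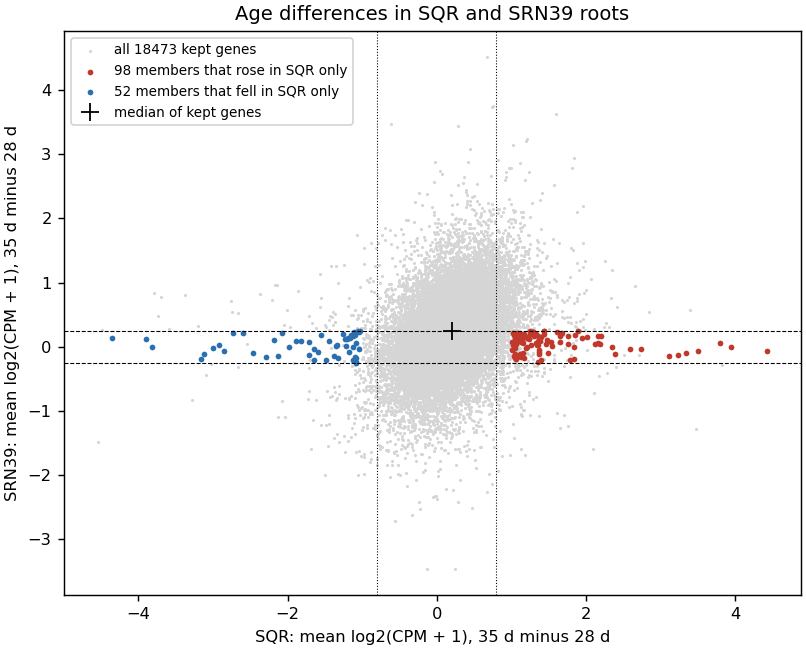
Difference between 35 and 28 d in SQR (x axis) and in SRN39 (y axis), as means of log2(CPM + 1), for each of the 18473 genes above the minimum level (grey), the 98 rises (red) and the 52 falls (blue). Dotted and dashed lines mark the limits of 0.8 and 0.25, and the cross marks the medians of 0.204 and 0.244, so the members lie in a narrow band along the SQR axis.

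The rises differed by 1.01 to 4.43 between ages in SQR on the log2(CPM + 1) scale, with a median of 1.327, and by a median of 0.079 in SRN39. The falls differed by 1.04 to 4.35, with a median of -1.41 in SQR and 0.02 in SRN39. At least 2 log2 units separated the ages for 17 rises and 15 falls. In the higher SQR group the median member stood at 12.7 CPM among rises and 18.2 CPM among falls, against 2.14 and 1.46 CPM in the lower group. Only 6 rises and 10 falls exceeded 100 CPM in the higher group, while 30 rises and 15 falls stayed below 5 CPM there, where a difference rests on few reads. Of all members, 90 rises and 48 falls passed the minimum level, and some of these passed only through the group in which they were high.

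The last 3 genes admitted differed by 1.012, 1.012 and 1.018 in SQR and the first 3 left out by 1.011, 1.009 and -1.003, so the lower edge of the list is a matter of rank. In SRN39 the members nearest the limit differed by 0.247, -0.245 and -0.243, and the nearest genes outside it by -0.252, 0.253 and 0.254. With the varieties exchanged, 1063 genes met the same rule, 758 as rises and 305 as falls. The exchanged rule compares 4 libraries with 4, and not 4 with 3, so the numbers are not on equal terms.

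The 15 largest rises differed by 2.16 to 4.43 between ages in SQR and the 15 largest falls by 2.07 to 4.35 (log2). The largest rise belonged to Sobic.004G283201, for which the sources used here give no name. It had no read in any SQR library at 28 d and stood at 12.1, 73.5 and 9.25 CPM in the 3 SQR libraries at 35 d. In SRN39 it did not exceed 0.0909 CPM in any library. Summed over the group, SQR at 35 d had 1020 counts, at least 435-fold more than the floor of 3 counts over the 28 d group allows. Of these counts 759 came from replicate 2, and the bound covers counting error only. All 3 late SQR libraries were far above the other 12, although replicate 2 was several-fold above the rest of its group.

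Sobic.006G184800, also without a name, had the second largest rise. Its SQR libraries stood at 0, 0.083, 0 and 0.157 CPM at 28 d and at 11.5, 45.6 and 6.37 CPM at 35 d. No SRN39 library exceeded 0.176 CPM. The SQR groups held 2 and 688 counts, a ratio of 440 with an interval of 121 to 3640 for counting error only (95%). As with the largest rise, the gene was nearly silent in every library outside SQR at 35 d.

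Other large rises started from a clear base level. The gene with the fourth largest rise stood at 3.24, 4.91, 7.46 and 4.08 CPM in SQR at 28 d and at 47.4, 209 and 25.6 CPM at 35 d, while SRN39 held 3.43 to 6.79 CPM across its 8 libraries. SRN39 at both ages overlapped SQR at 28 d for that gene and lay below every SQR library at 35 d. The gene with the tenth largest rise stood at 28, 8.32, 12.8 and 12.7 CPM at 28 d and at 35.6, 412 and 31.9 CPM at 35 d in SQR. Its SRN39 libraries held 1.54 to 7.34 CPM, below every SQR library of either age.

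Among falls, Sobic.002G118300, unnamed in the sources used here, changed most. Its SQR libraries stood at 50.1, 12.2, 145 and 27.3 CPM at 28 d and at 0.853, 1.94 and 0.466 CPM at 35 d. In SRN39 the values were 0.727, 1.41, 7.83 and 2.77 CPM at 28 d and 1.77, 6.84, 0.54 and 5.15 CPM at 35 d. The SQR mean fell 53.9-fold, and the SRN39 libraries covered a range that overlapped SQR at 35 d and lay wholly below SQR at 28 d. The gene with the second largest fall was far more abundant, at 499, 207, 1683 and 469 CPM in SQR at 28 d and 75.6, 32.1 and 17.5 CPM at 35 d, with 25.5 to 232 CPM in SRN39.

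Names could be given to 6 members, all of them falls. They come from best matches in Arabidopsis and rice held for 413 genes of chromosome 1 and the start of chromosome 2 that the study had called for genotype, so a named member is not a random one. Cofactor-independent phosphoglycerate mutase (Sobic.001G384100), an enzyme of the lower part of glycolysis, stood at 59.7, 18.6, 111 and 46.2 CPM in SQR at 28 d and at 5.03, 9.1 and 4.51 CPM at 35 d. Its SRN39 libraries held 4.09, 7.32, 18 and 6.61 CPM at 28 d and 5.41, 11.6, 3.39 and 13.4 CPM at 35 d. The SQR mean fell 9.48-fold, and SRN39 at both ages covered the SQR levels at 35 d.

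A pair of further falls matched families with members that move sugar or water across membranes. The match to the MtN3 family (Sobic.001G373600), whose characterised plant members include SWEET sugar carriers, stood at 7.82, 2.08, 11.4 and 4.71 CPM in SQR at 28 d and at 0.171, 0.194 and 1.79 CPM at 35 d, and at 0.0882 to 1.47 CPM in SRN39. The match to the beta-tonoplast intrinsic protein (β-TIP, Sobic.001G208500), an aquaporin of the vacuolar membrane known in Arabidopsis mainly from seeds, stood at 6.7, 8.66, 25.4 and 34.7 CPM and at 2.9, 2.61 and 5.05 CPM. In SRN39 β-TIP did not exceed 0.391 CPM, so every SQR library of either age lay above every SRN39 library. No other of the 6 named members separated the varieties at both ages.

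A WD40 repeat protein (Sobic.001G163600), a class that serves as a scaffold in many protein complexes, stood at 6.59, 3.08, 25.5 and 5.81 CPM in SQR at 28 d, at 2.3, 0.581 and 0.466 CPM at 35 d and at 0.308 to 4.3 CPM in SRN39. The match to a plant EC metallothionein (Sobic.001G311200), a small metal-binding protein known from cereal embryos, stood at 2.68, 2.16, 8.15 and 2.67 CPM, at 0.682, 0.194 and 0.233 CPM and at 0.273 to 0.725 CPM. The SRN39 range took in all 3 late SQR libraries for the WD40 protein and 1 of 3 for the metallothionein.

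The match to BETA-GLUCOSIDASE 44 (Sobic.001G123300), of a family that releases sugars from glycosides, was the most abundant named member and fell the least, 2.12-fold. It stood at 251, 328, 222 and 387 CPM in SQR at 28 d and at 144, 98.7 and 177 CPM at 35 d. Its 8 SRN39 libraries held 105 to 220 CPM with a mean of 147, overlapping SQR at 35 d and staying below every SQR library at 28 d.

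**Figure D2:**
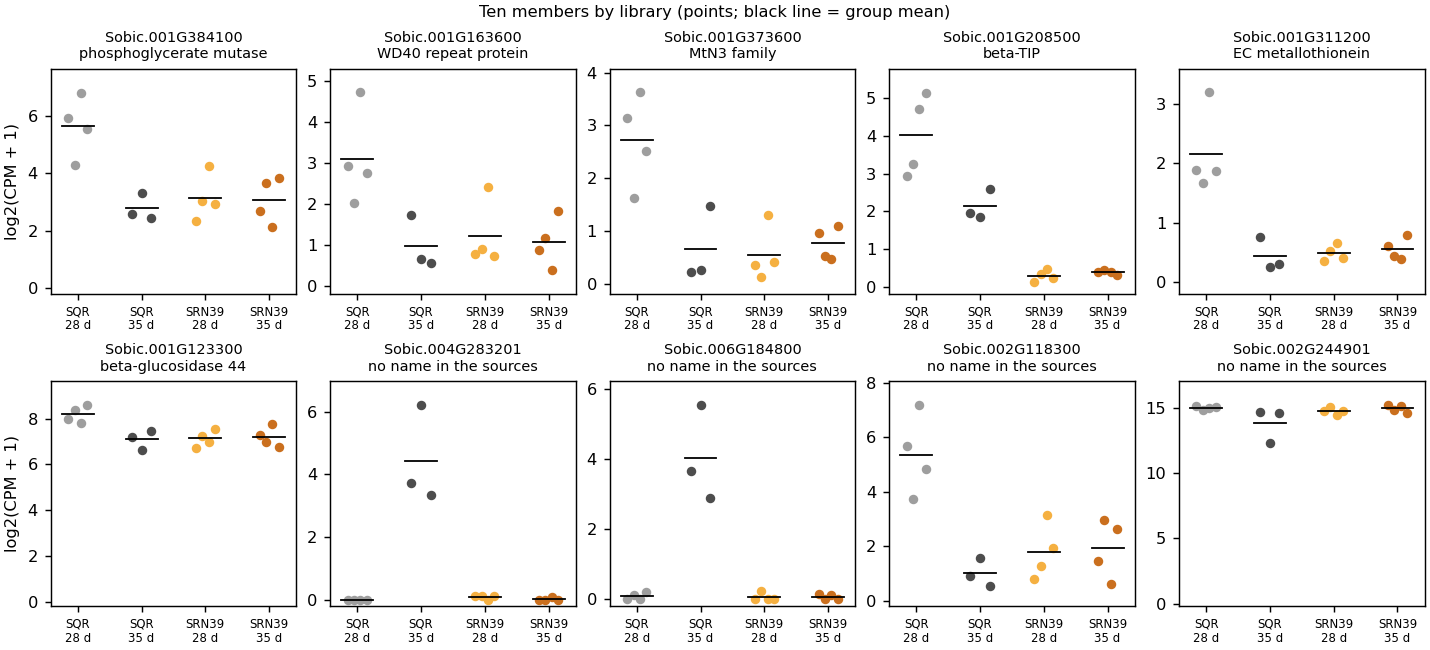
Level of the 6 named members and of 4 further members in each library, as log2(CPM + 1), with a black line at each group mean (SQR grey, SRN39 orange). Sobic.004G283201 and Sobic.006G184800 are near 0 outside SQR at 35 d, and β-TIP separates all SQR from all SRN39 libraries.

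One fall stood apart by its sheer level. Sobic.002G244901, with no name in the sources used here and picked out after its values were seen, took 35312, 29405, 32610 and 33536 CPM in SQR at 28 d and 25780, 4918 and 24983 CPM at 35 d. In SRN39 it took 22233 to 37161 CPM. Replicate 2 of SQR at 35 d lay far below every other library, while the other late SQR libraries lay inside the SRN39 range.

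Word lists for root functions could be looked up only among the 413 matched genes. Of these, 6 genes of carbohydrate metabolism and glycolysis were above the minimum level and 1 was a member, the phosphoglycerate mutase. Of 10 transport genes, 1 was a member, β-TIP, and of 15 genes found by metal words 1, the metallothionein. The word zinc also finds zinc finger proteins, and most of these 15 were also in the list of transcription factors. No member was among 14 cell wall genes, 32 of defence and secondary metabolism, 22 of transcription factors, 7 of hormones, 6 of stress and abscisic acid, 4 each of phosphate starvation, cell division and ribosome or 2 of low oxygen. Nothing can be said from these counts about the 144 members without a match. Markers of root or green tissue were absent from the matched genes, so the tissue label was not checked against its markers.

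A single SQR library led in each direction. Averaged over the 98 rises, SQR stood at 2.04, 2.13, 2.06 and 1.79 log2(CPM + 1) at 28 d and at 3.29, 4.39 and 3.02 at 35 d. SRN39 stood at 1.71 to 2.14 at 28 d (mean 1.901, SD 0.21, n = 4) and at 1.86 to 2 at 35 d (mean 1.958, SD 0.066, n = 4). All 3 late SQR libraries were above the other 12, and replicate 2 was more than 1 unit above its companions. It was the highest late SQR library for 75 of 98 rises (76.5%), against 50.0% of the genes above the minimum level.

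Averaged over the 52 falls, SQR stood at 4.34, 3.68, 5.08 and 4.32 at 28 d and at 2.6, 2.51 and 2.63 at 35 d. SRN39 stood at 2.71 to 3.35 at 28 d (mean 2.963, SD 0.275, n = 4) and at 2.78 to 3.19 at 35 d (mean 2.982, SD 0.174, n = 4). Among falls the early SQR libraries were spread widely while the late ones agreed closely. Replicate 3, which was also the most deeply sequenced library, was the highest early SQR library for 34 of 52 falls (65.4%), against 15% of the genes above the minimum level. The part of depth in this was not tested.

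**Figure D3:**
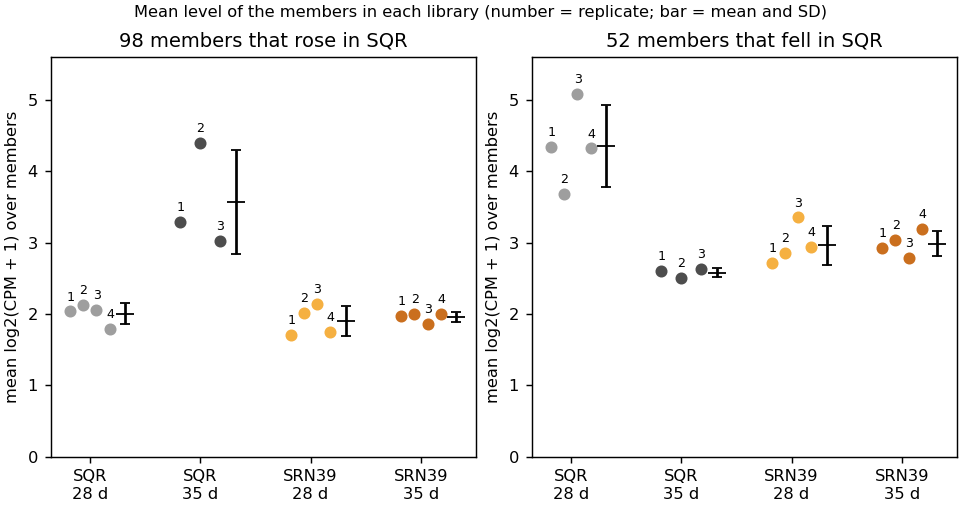
Mean log2(CPM + 1) over the 98 rises (left) and the 52 falls (right) in each library, with replicate numbers beside the points and bars for the group mean and SD. SQR at 35 d lies between 3.02 and 4.39 for rises and SQR at 28 d between 3.68 and 5.08 for falls, each above all other groups.

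Without replicate 2 of SQR at 35 d, 76 of the 98 rises still differed by at least 0.8 between ages in SQR, with a median of 1.049. Without replicate 3 of SQR at 28 d, 49 of the 52 falls still did, with a median of -1.305. With both libraries left out, 75 rises and 47 falls did, with medians of 1.084 and -1.262. No member could change direction here, as the rule let no SQR libraries of the 2 ages overlap. The leading libraries thus enlarged the differences, and most members kept the minimum size without them. The SRN39 limit was less stable. Without replicate 3 of SRN39 at 28 d, 71 of the 98 rises and 29 of the 52 falls still met the whole rule, the fewest for any single library left out.

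**Figure D4:**
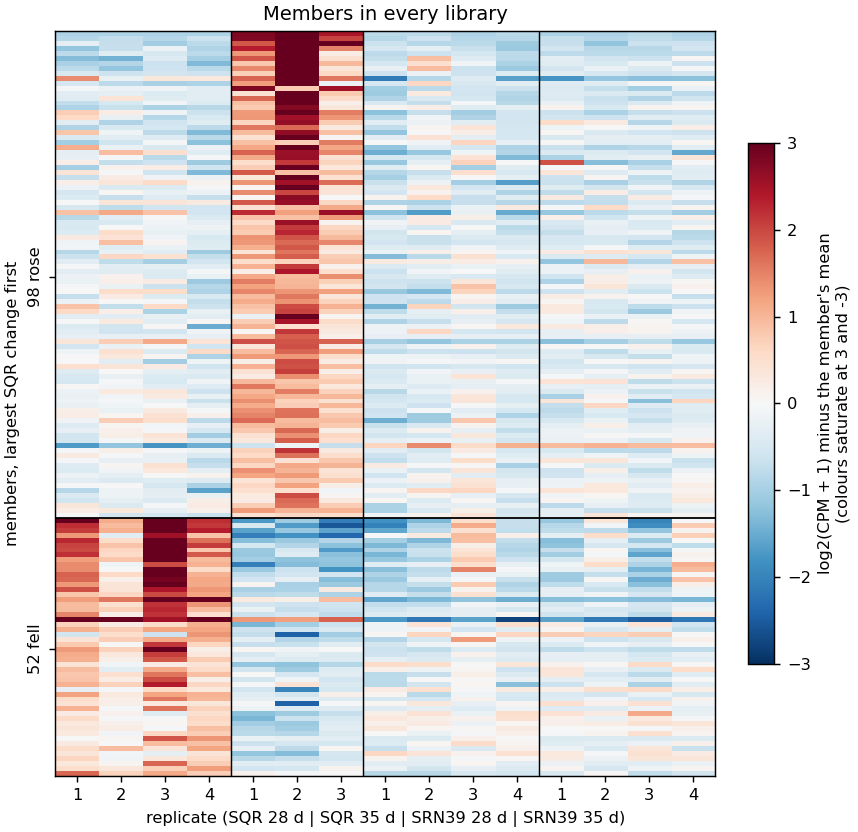
The 98 rises (top) and 52 falls (bottom), largest SQR difference first, in each of the 15 libraries, coloured by log2(CPM + 1) minus the member's mean over all libraries. Replicate 2 of SQR at 35 d is the darkest column among rises and replicate 3 of SQR at 28 d among falls, and the SRN39 columns show no step between ages, as the rule requires.

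The rule made no use of how SRN39 replicates spread around their group mean, and in that spread the 15 largest falls varied together, a subset taken by size of the SQR change. With group means removed, the 15 largest falls correlated with each other at a mean r of 0.8 over the 8 SRN39 libraries. The falls as a whole did not stand out there, with a mean r of 0.092 over the 48 above the minimum level, against 0.165 for the 90 rises and 0.076 for all genes above that level. In SQR, whose libraries chose the members and led the list, replicate 3 at 28 d was highest in its group for all 15 and replicate 2 lowest for all 15. In SRN39 at 28 d replicate 3 was highest for 14 of 15, and at 35 d replicate 4 was highest for 11 and replicate 2 for 4, where 47.5%, 43.2% and 22.9% of the genes above the minimum level peaked in those libraries. The largest falls thus varied jointly between SRN39 libraries of 1 age, although their SRN39 means at both ages were alike by the rule.

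Many other genes followed the same profile in SRN39. Against the mean of the 15 largest falls, 14 of the 15 reached an r of 0.7 in SRN39, but so did 21.7% of the non-member genes above the minimum level, 24.2% of the other falls and 20% of the rises. In SQR 14 of the 15 reached it, with 36.4% of the other falls, 0.0% of the rises and 1.75% of non-member genes, but the SQR libraries were the ones that chose the members. Phosphoglycerate mutase, the WD40 protein, the MtN3 match and the metallothionein followed the mean of the largest falls in SRN39 at an r of 0.978, 0.948, 0.761 and 0.766, and β-TIP followed it at 0.548. BETA-GLUCOSIDASE 44 went the other way, at -0.484. These correlations over 8 libraries share the libraries and their scaling and are given as a description.

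The 15 largest rises were led by 1 SQR library. Replicate 2 of SQR at 35 d was highest for 14 of the 15, and their mean stood at 3.48, 6.12 and 2.99 in the late SQR libraries, against 0.955 to 1.63 in SRN39. Within SRN39 these 15 correlated at a mean r of only 0.296.

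The SRN39 level was compared with both SQR levels. The rule did not name that level, but a small SRN39 change on log2(CPM + 1) is met most easily by genes near 0 in SRN39, so it favours low SRN39 levels. For 94 of 98 rises (95.9%) the SRN39 mean over its 8 libraries lay on the side of SQR at 28 d, 56 of them beyond it. For 37 of 52 falls (71.2%) it lay on the side of SQR at 35 d. Among genes that met the SQR conditions but changed by more than 0.25 in SRN39, SRN39 lay on those sides for 396 of 494 rises (80.2%) and 90 of 170 falls (52.9%). Of the members, 33 rises and 20 falls averaged below 1 CPM in SRN39, and among the others 61 of 65 rises (93.8%) but 17 of 32 falls (53.1%) had SRN39 on those sides. For falls the share thus came from members with little expression in SRN39, and nothing is read from it beyond that.

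Abundant and less abundant falls were also read apart, with no test. Of the 10 falls above 100 CPM in SQR at 28 d, 7 had SRN39 on the 28 d side, whereas 34 of the 42 less abundant falls had it on the 35 d side. The 20 falls below 1 CPM in SRN39 were all among the less abundant, so this split largely overlaps with theirs. One of the 10, the gene with the fortieth largest fall, stood at 1090.1, 1011, 700 and 1289.5 CPM in SQR at 28 d and at 389, 440 and 566 CPM at 35 d. SRN39 held 782 to 2003 CPM for it, overlapping SQR at 28 d and above every late SQR library. Leaving out each library in turn moved the number of rises on the 28 d side between 89 and 95 and that of falls on the 35 d side between 35 and 38.

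**Figure D5:**
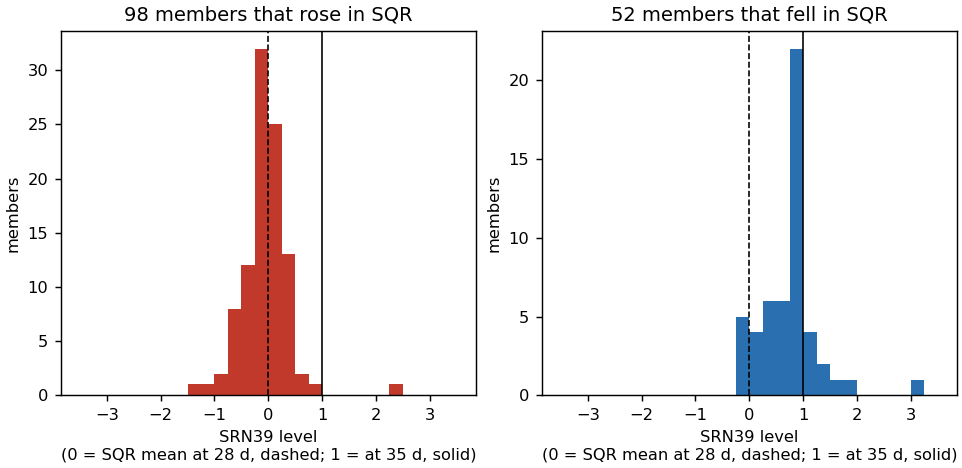
Position of the mean SRN39 level between the SQR levels, on log2(CPM + 1), for the 98 rises (left) and 52 falls (right), where 0 is SQR at 28 d (dashed) and 1 is SQR at 35 d (solid). Rises pile up around 0 and falls mostly just below 1.

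A model of all 4 groups was fitted to the counts with edgeR, with p-values adjusted over 18473 genes (Benjamini-Hochberg, 0.05, two-sided). For the contrasts that the rule used, counts are printed with their background and nothing is read from them. In SQR, 45 of 90 tested rises were called higher at 35 d (1.07% of all genes) and 41 of 48 tested falls lower (1.53%). In SRN39, 0 of either were called, against 15.7% of all genes higher and 15.2% lower. At an unadjusted p under 0.05 there were 2 rises and 0 falls in SRN39 with edgeR (42.3% of all genes) and 2 of each with DESeq2 (42.7%). Limma-voom called 1 rise, lower at 35 d, and 30.7% of all genes. The rule itself set these low counts. The difference between both age effects was called for 28 rises (3.66% in that direction) and 21 falls (3.68%).

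Without replicate 2 of SQR at 35 d the SQR calls shrank to 7 rises and 12 falls, and without replicate 4 of SQR at 28 d to 9 and 19. With replicate 1 or replicate 3 of SQR at 28 d left out there were 23 or 29 rises and 25 or 27 falls. For the difference between age effects, 16 or 17 rises were called without replicate 4 of SQR at 28 d, replicate 2 of SQR at 35 d, replicate 2 of SRN39 at 28 d or replicate 3 or 4 of SRN39 at 35 d, and 13 falls without replicate 3 of SQR or replicate 4 of SRN39 at 28 d.

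The varieties themselves were compared over both ages together. This average is not free of the rule, since a member with SRN39 at one SQR level carries part of its SQR age difference into it, and the counts are given as a description. SRN39 was called lower than SQR for 57 of 90 tested rises and higher for 1, where 20.3% and 16.7% of all genes were called in those directions. Among falls 13 of 48 were called lower in SRN39 and 6 higher. The median difference (log2) was -1.08 for rises, -0.628 for falls and -0.063 for all genes tested. Without replicate 3 of SQR at 28 d, 8 falls were called lower.

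Each age was also read on its own. At 28 d, 31 of 48 falls were called lower in SRN39 (8.74% of all genes) and 0 higher (8.65%), while 10 rises were called lower and 2 higher. At 35 d, 79 of 90 rises were called lower in SRN39 (19.4%) and 1 higher (16.3%), while 14 falls were called higher and 3 lower. Each of these contrasts shares an SQR group with the rule and is a description.

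β-TIP, which has a name here only because the study called it for genotype, was lower in SRN39 by 4.90 on the log2 scale over both ages (SE 0.44), with every SRN39 library below every SQR library. The gene with the twenty-first largest fall showed a similar gap. It stood at 93.4, 69.4, 51 and 97 CPM in SQR at 28 d, at 21.1, 20.1 and 29.8 CPM at 35 d and at 0.326 to 1.98 CPM in SRN39, a log2 difference of -5.13 (SE 0.29, edgeR adjusted p = 2.8e-10, and 1.6e-70 to 1.1e-08 over 22 alternatives). For both genes the fall in SQR ran between levels that SRN39 never reached.

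Opposite to these, 1 rise was called higher in SRN39, the gene with the eighty-fourth largest rise. It stood at 0.112, 0.583, 0.058 and 0.314 CPM in SQR at 28 d, at 1.36, 2.32 and 1.24 CPM at 35 d and at 4.3 to 8.64 CPM in SRN39. The log2 difference was 3.28 (SE 0.30, edgeR adjusted p = 1.3e-07, and 5e-23 to 1.1e-06 over 22 alternatives). SQR at 35 d thus moved towards the SRN39 level without reaching it.

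For the other named members the average over both ages restated the SQR fall, and names exist here only for genes the study had called for genotype, so no test is given. Phosphoglycerate mutase differed between varieties (SRN39 minus SQR, log2) by -2.72 (SE 0.52) at 28 d and by 0.47 (SE 0.56) at 35 d. The MtN3 match differed by -3.62 (SE 0.76) and -0.12 (SE 0.87), and the metallothionein by -3.24 (SE 0.52) and 0.35 (SE 0.65). For these genes the varieties were thus far apart at 28 d and within 1 SE of each other at 35 d. β-TIP, by contrast, differed by -6.27 (SE 0.62) and -3.52 (SE 0.63).

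The remaining large differences over both ages, picked by size among those called, came from unnamed members. SRN39 was higher for the falls of rank 24, 40, 48 and 30, by 1.18, 0.83, 0.79 and 0.74 (log2). For all of these the gap lay mainly at 35 d, at 1.21 to 2.23 against 0.12 to 0.38 at 28 d. Their average thus restates the SQR fall that chose them, so no test is given. SRN39 was lower for the rises of rank 5 and 68 and the fall of rank 27, by -6.66, -4.86 and -4.80 (log2). No test is given for these, as each passed the minimum level mainly through the SQR group in which it was high. For rank 5 the gap also lay mainly at 35 d. SRN39 reached at most 0.104 CPM for rank 68 and 0.293 CPM for rank 27, against 0 to 4.74 and 0.581 to 15.3 CPM in SQR. The difference of the rise of rank 5 rests mostly on replicate 2 of SQR at 35 d, at 176 CPM, and 8 of 17 alternatives did not call it.

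In the genome, members lay on all 10 sorghum chromosomes. Chromosome 3 held 30 members (20%, against 14.7% of the genes above the minimum level) and chromosome 7 held 4 (2.67%, against 6.49%). Identifiers number genes along each chromosome, and 19 of the 98 rises fell into 8 runs of members with neighbouring identifiers, at most 10 apart. Among the 52 falls 1 such run, of 2 genes, occurred. With the varieties exchanged and the list again cut at its 150 largest changes, which held 121 rises, 15 of these formed 7 runs. The lists differ in length, which alone changes the number of runs, and the number for unrelated genes was not worked out.

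Sobic.006G184800 stood in one of these runs, a chromosome 6 trio that also held the rises of rank 3 and rank 15. The gene of rank 3 stood at 0.116 to 0.894 CPM in SQR at 28 d and at 7.25, 36.5 and 23.4 CPM at 35 d, and that of rank 15 at 1.56 to 3 CPM and at 6.91, 75 and 3.73 CPM. A trio on chromosome 2 held the rises of rank 5, 6 and 16, at 3.24, 176 and 1.01 CPM, at 12.2, 66.8 and 4.04 CPM and at 9.21, 38.7 and 6.45 CPM in SQR at 35 d. Replicate 2 was the highest late SQR library for every gene of both trios. Whether neighbouring genes share sequence that could share reads was not checked, since no sequence of them was used here.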

How the data were processed

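From 3′ mRNA-Seq libraries of whole roots, pooled over technical replicates, the authors deposited raw whole-number counts per gene. Their trimmed reads had been aligned with STAR to the reference of BTx623 (version, annotation and strand setting not given in the sources used here). The 15 columns that match a sample were used and 1 was left out, since its name (SQR, 35 d, replicate 4) matched no sample. Since 3′ libraries give about one read site per transcript, CPM was compared between genes without dividing by length.

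Members were chosen on log2(CPM + 1) from column totals. Members and gene lists were chosen with earlier results of these data known. For tests, the 18473 genes above 1 CPM in 3 or more libraries were used, and edgeR 4.0.16 (R 4.3.3, TMM, quasi-likelihood) was fitted to 4 groups and tested on simulated data. Each standard error is the log2 difference divided by the root of F. Alternatives were DESeq2 1.42.0, limma 3.58.1 voom with quantile normalization, other scalings, pseudocount, filters and thresholds, a replicate block and leaving out each library. Leaving out both leading libraries was added after seeing the data. Same-numbered libraries deviated together with r from -0.215 to 0.185 over 21 pairs, so numbers were not treated as pairs. Whether same-numbered libraries shared a batch cannot be told from this.

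The rule for genes described took the 15 largest rises and 15 largest falls, annotated members, members at the thresholds and the 5 largest called genotype differences in each direction. Since the gene table held here matched 0 of the identifiers, only 4 unnamed identifiers are printed, and the others are given by rank, range or count. Planned promoter motifs and cell type markers were not run.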

Additional observations from a re-analysis of the deposited data

Results flagged for a closer look

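In groups of 4 libraries, a library was singled out when its distance to the nearest other, as a share of the group's range, exceeded Dixon's critical value (95%). Among 35 groups examined over 12 items, 5 were singled out, where chance gives about 1 in 20. The WD40 protein (Sobic.001G163600) had replicate 3 of SRN39 at 28 d above the rest, at 2.41 log2(CPM + 1) against 0.725 to 0.912, a ratio of 0.889. The metallothionein (Sobic.001G311200) had replicate 3 of SQR at 28 d above the rest, at 3.19 against 1.66 to 1.88, a ratio of 0.857. Sobic.004G283201 had replicate 3 of SRN39 at 28 d lowest (0 against 0.113 to 0.125, ratio 0.902) and replicate 3 of SRN39 at 35 d highest (0.107 against 0, ratio 1.0). Sobic.006G184800 had replicate 2 of SRN39 at 28 d highest (0.234 against 0, ratio 1.0). The last 3 rest on single reads or very few.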

How the results depend on the processing

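Under every alternative all 98 rises and 52 falls kept their direction in SQR. The lack of overlap fixed this except where libraries were scaled differently, so it is no sign of stability. The number of genes meeting the rule changed more: 109 rises and 144 falls with TMM, 109 and 145 with DESeq2 size factors, 339 and 157 with SRN39 within 0.5, and 101 and 53 with a minimum difference of 1. With a pseudocount of 0.5, 248 rises and 101 falls met it. Of the members, 67 rises and 36 falls still met the rule with TMM, and 80 and 43 with the pseudocount of 0.5. Leaving out each library in turn gave 156 to 528 rises and 74 to 167 falls, with 528 and 167 without replicate 3 of SQR at 35 d and 323 rises without replicate 2 of SQR at 28 d. Without both leading libraries 169 falls met it. The causes were not tested.

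Over both ages, rises called higher in SRN39 numbered 1, and 2 with DESeq2, RLE size factors, no filter or both leading libraries left out (1 to 2 leaving out each library). Rises called lower numbered 44 to 60 leaving out each library. Falls called higher numbered 3 at an adjusted p under 0.01 (5 to 8 leaving out each), and falls called lower 8 with limma-voom and 6 at 0.01 (8 to 19). For age in SQR, limma-voom called 25 rises and 26 falls, and 5 and 6 were called without both leading libraries (7 to 54 and 12 to 44 leaving out each). For the difference between age effects, DESeq2 called 47 rises and limma-voom 12 falls, with 16 and 12 without both leading libraries (16 to 41 and 13 to 27 leaving out each). In SRN39, limma-voom called 1 member lower. The cause was not tested.

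The replicate block gave 2 rises called higher and 52 lower over both ages, 6 falls higher and 14 lower, 16 rises and 27 falls for age in SQR, 18 rises and 17 falls for the difference between age effects and 0 for age in SRN39. Whether same-numbered libraries belong together is not known, and why calls were lost under it was not tested.

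SQR at 35 d has 3 libraries with unequal profiles, so its means are the least certain, and members below 5 CPM rest on few reads.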
